A study of Mus musculus with 6 samples.

Results

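The 47 genes described here encode the machinery that takes a cell through mitosis and splits it at cytokinesis. They were taken by symbol, from a list of mitotic genes, out of 47561 rows in the deposited files, each of the 47 symbols had 1 row, and all 47 passed the filter on low values that left 15778 genes for testing. The genes were measured by RNA-seq in neutrophils sorted by flow cytometry from the bone marrow of male wild-type mice. CUMS mice had been exposed to chronic unpredictable mild stress, a paradigm in which changing mild environmental stressors are applied for 4 weeks, and Control mice form the comparison group. Each group has 3 libraries. The sources used here leave out the sorting gate, the strain, the age of the mice and how animals map to libraries, so p-values measure the spread between these libraries, part of which may be technical.

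Entry into mitosis is driven by cyclin-dependent kinase 1 with its cyclins, after which condensins compact the chromosomes, motors and microtubule binding proteins build the spindle, and kinetochores attach chromosomes to it. The spindle checkpoint holds the anaphase-promoting complex inactive until every chromosome is attached, and the central spindle then places the contractile ring that divides the cell. Most of these transcripts accumulate late in the cell cycle through repressive and activating MuvB complexes, with B-Myb and FoxM1, that bind the promoter element called CHR, beside CCAAT boxes bound by NF-Y. In the marrow, neutrophil precursors divide up to the myelocyte stage, and the band and segmented neutrophils that follow no longer divide.

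Of the 47 genes, 37 fell in CUMS, 0 rose and 10 did not pass (edgeR quasi-likelihood test, Benjamini-Hochberg adjusted p under 0.05). With DESeq2 41 fell and 0 rose, where 4.15% of all genes with an adjusted p fell. Among all genes tested, 2.14% fell (338 of 15778) and 2.36% rose. The median log2 fold change of the 47 genes, CUMS over Control, was -0.69, against -0.01 for all genes tested. In 44 of the 47 genes every CUMS library lay below every Control library, a pattern shown by 11.5% of all genes tested. The log2 fold changes of the 37 ran from -1.20 in Shcbp1 to -0.25 in Smc4, with 27 of them between -0.9 and -0.6, and 2 genes reached a 2-fold fall, Shcbp1 and Ttk. In bulk libraries such as these, fewer dividing cells and less transcript per dividing cell cannot be told apart.

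Summed over the 47 genes, abundance was 811, 818 and 825 CPM in the CUMS libraries, against 1120.5, 1139 and 1179 CPM in the Control libraries. CPM is the library-size scaled abundance (counts per 1e+06 after TMM scaling). The groups did not overlap, and the CUMS mean was 71.4% of the Control mean. Mki67 alone made up 21.99% of the sum in CUMS and 19.8% in Control. Without the 4 genes Mki67, Top2a, Smc4 and Kif23, which were left aside after their values were seen because they have the highest CPM without regard to length, the CUMS mean was 64.6% of the Control mean. The libraries of a group were alike, with a median coefficient of variation over the 47 genes of 7.52% in CUMS and 7.12% in Control. No CUMS library was the lowest for most genes: CUMS replicate 1 was the lowest of its group in 18, replicate 2 in 14 and replicate 3 in 15.

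**Figure D1:**
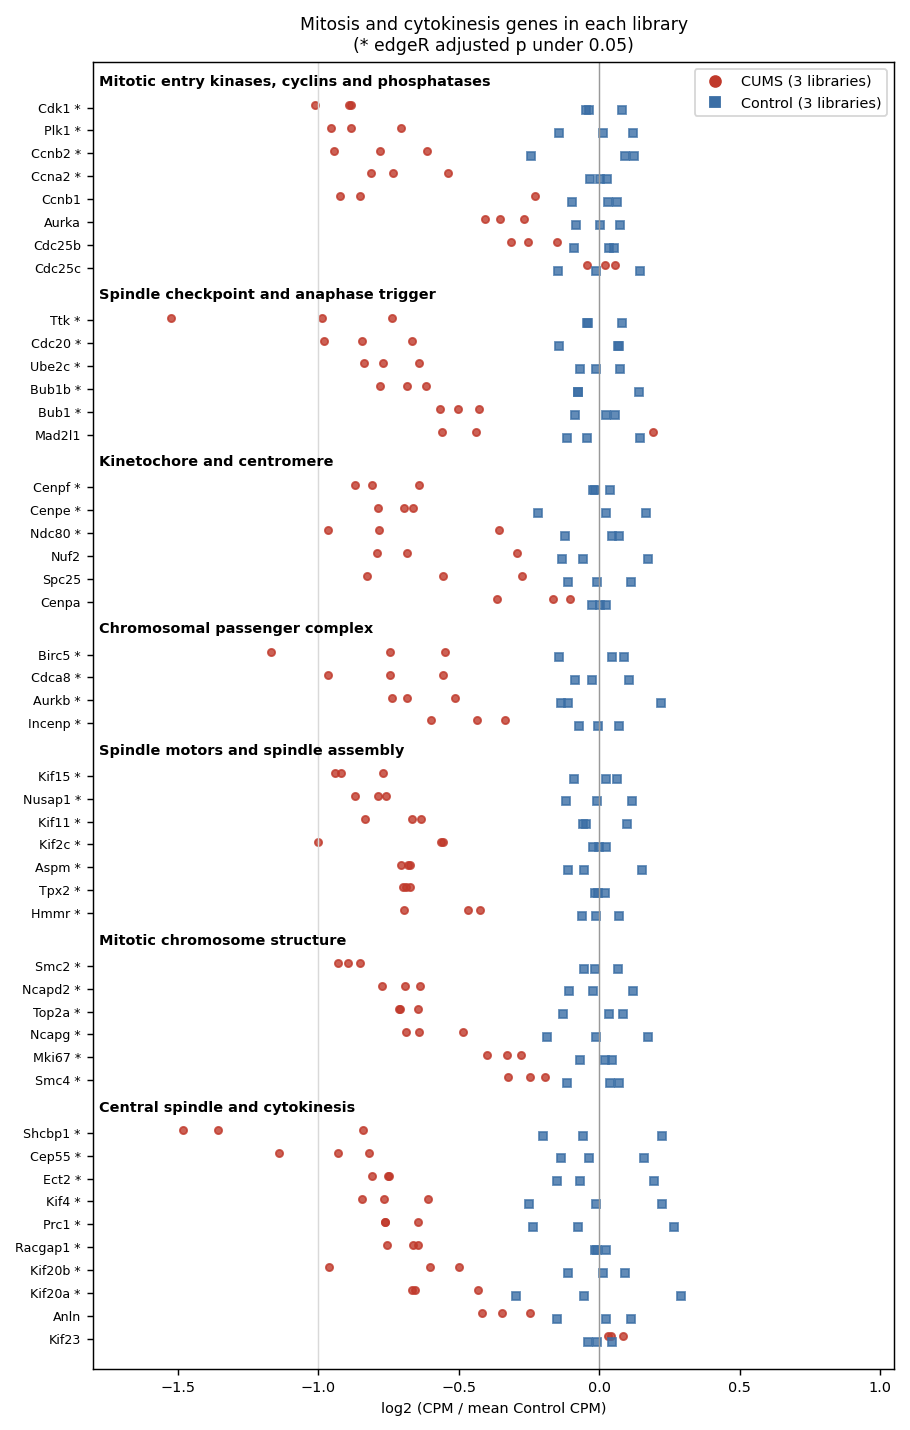
Level of each of the 47 genes in each library, as the log2 ratio of its CPM to the mean of the 3 Control libraries, with CUMS as circles and Control as squares and the genes grouped by step. The CUMS libraries lie left of all Control libraries in 44 genes, and the exceptions are Cdc25c, Mad2l1 and Kif23.

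The promoters of 39 of the 47 genes were found in RefSeq (GRCm38.p6), each as a window from 250 bases before to 50 bases after the annotated start. The other 8 genes, Aurkb, Ccna2, Cdc25c, Incenp, Kif20a, Shcbp1, Smc4 and Tpx2, are named only. Windows were searched on both strands for the core letters of the CHR element, which read TTTGAA directly and TTCAAA when seen from the opposite one, and for the box that reads CCAAT or, from the opposite strand, ATTGG. Within the windows of these genes 2 pairs of matches overlapped. TTTGAA was found in 31 of the 39 windows (79.5%), against 18.1% of the 27025 gene promoters in the table and 13.2% of the 11206 belonging to genes tested. CCAAT was found in 29 of the 39 (74.4%), against 37.9% of all promoters. Both were found in 25 of the 39 (64.1%), against 7.12% of all promoters.

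The matches also lay at particular distances from the start. TTTGAA matches beginning in the first 50 bases after the start occurred in 20 of the 39 windows (51.3%), against 2.18% of all promoters. CCAAT matches were most frequent in the 50 bases before the start, in 19 of the 39 windows (48.7%), against 9.44% of all promoters. These matches describe letters in a window, and binding was not measured.

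**Figure D2:**
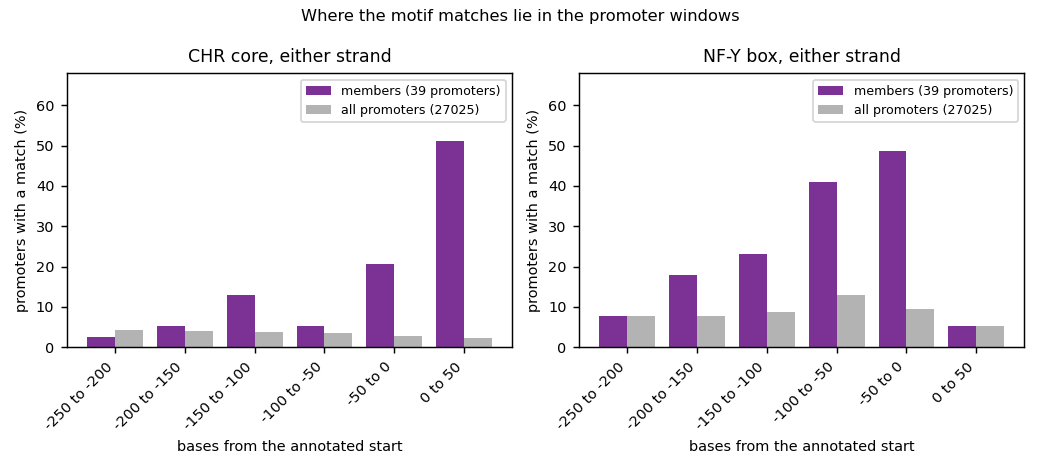
Percentage of promoter windows holding a match of the CHR core (left) or of the box bound by NF-Y (right) on either strand, in bins of 50 bases from the annotated start, for the 39 promoters of mitosis and cytokinesis genes and for all 27025 promoters. CHR matches in the bin from 0 to 50 reach 51.3% against 2.18%.

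The stretches below run from 110 bases before to 20 bases after the start, 5′ to 3′ on the strand of the gene, with matches of the CHR core and of the CCAAT box, on either strand, in capitals. They were chosen to show 1 or 2 genes of the main steps and the centralspindlin pair Racgap1 and Kif23, of which the first fell in CUMS and the other did not pass. All are GRCm38.p6. Cdk1 is at chr10:69352893-69353022 (minus strand), Ccnb2 at chr9:70421535-70421664 (minus), Cdc20 at chr4:118437324-118437453 (minus), Cenpf at chr1:189688067-189688196 (minus), Kif11 at chr19:37376272-37376401 (plus), Top2a at chr11:99024170-99024299 (minus), Racgap1 at chr15:99651637-99651766 (minus) and Kif23 at chr9:61946780-61946909 (minus).
Cdk1: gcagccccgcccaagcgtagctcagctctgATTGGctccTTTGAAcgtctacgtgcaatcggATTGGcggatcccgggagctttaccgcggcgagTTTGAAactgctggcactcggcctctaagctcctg
Ccnb2: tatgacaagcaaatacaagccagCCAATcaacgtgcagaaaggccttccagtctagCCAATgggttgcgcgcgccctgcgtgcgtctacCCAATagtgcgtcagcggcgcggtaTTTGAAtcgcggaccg
Cdc20: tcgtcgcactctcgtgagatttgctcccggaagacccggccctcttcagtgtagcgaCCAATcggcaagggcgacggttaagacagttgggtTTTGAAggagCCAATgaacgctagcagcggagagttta
Cenpf: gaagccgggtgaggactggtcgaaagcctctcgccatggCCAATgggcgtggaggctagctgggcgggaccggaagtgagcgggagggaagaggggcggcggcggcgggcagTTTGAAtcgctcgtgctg
Kif11: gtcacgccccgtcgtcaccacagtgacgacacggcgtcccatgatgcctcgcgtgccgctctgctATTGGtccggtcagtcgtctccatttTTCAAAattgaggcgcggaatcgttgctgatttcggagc
Top2a: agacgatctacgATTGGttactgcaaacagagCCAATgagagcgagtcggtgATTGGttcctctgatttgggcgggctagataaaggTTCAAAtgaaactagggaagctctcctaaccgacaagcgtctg
Racgap1: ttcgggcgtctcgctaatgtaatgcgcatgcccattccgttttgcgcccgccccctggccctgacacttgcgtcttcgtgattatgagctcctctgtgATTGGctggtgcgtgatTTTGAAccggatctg
Kif23: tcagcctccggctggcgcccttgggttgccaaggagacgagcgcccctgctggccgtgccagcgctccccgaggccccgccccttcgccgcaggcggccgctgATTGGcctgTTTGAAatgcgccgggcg

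The Ccnb2 stretch holds 3 CCAAT boxes upstream of a TTTGAA that begins just after the start, and the Cdk1 stretch holds 2 of each. Racgap1 and Kif23 both carry an ATTGG just before the start and a TTTGAA just after it. The median log2 fold change was -0.70 for the 31 genes with TTTGAA and -0.60 for the 8 without, and 26 and 4 of them fell. For CCAAT the medians were -0.70 for the 29 genes with it and -0.69 for the 10 without, and 23 and 7 fell. For both motifs together they were -0.71 for the 25 genes with both and -0.68 for the other 14, and 21 and 9 fell. None of these differences was tested.

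Among the kinases, cyclins and phosphatases of mitotic entry, 4 of 8 genes fell: Cdk1, Plk1, Ccnb2 and Ccna2. Cdk1, the kinase that triggers mitosis, was at 6.46, 7.03 and 7.07 CPM in the CUMS libraries, against 12.7, 13.8 and 12.6 CPM in the Control libraries. The groups were far apart, at 52.6% of the Control mean (log2 fold change -0.93 ± 0.11 SE, adjusted p = 0.00048). Plk1, a kinase of centrosome maturation and mitotic progression, averaged 6.59 ± 0.594 CPM in CUMS and 11.8 ± 1.06 CPM in Control (SD over 3 libraries), and its log2 fold change was -0.84 ± 0.12 (adjusted p = 0.0024). Of the cyclins, Ccnb2 fell by 0.77 ± 0.12 and Ccna2, which acts from S phase into early mitosis, by 0.69 ± 0.088 on the log2 scale. The genes lie apart in the genome, Cdk1 on chromosome 10 (69335146 to 69352938, minus strand, GRCm38) and Plk1 on chromosome 7 (122159439 to 122169873, plus strand), and each value is a total over the whole gene.

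The other 4 genes of this step did not pass. Ccnb1, the main mitotic partner of Cdk1, was at 5.39, 5.67 and 8.72 CPM in CUMS, against 10.7, 10.4 and 9.57 CPM in Control. All 3 CUMS libraries were lower, but replicate 3 lay close to Control (log2 fold change -0.63 ± 0.17, adjusted p = 0.066), and without it the adjusted p was 0.010. Ccnb1 passed in 4 of the 13 alternative fits listed at the end, among them DESeq2 (adjusted p = 0.0096). Aurka, the kinase of the spindle poles, differed by -0.34 ± 0.11 (adjusted p = 0.12). The phosphatase genes Cdc25b and Cdc25c, whose products activate Cdk1, did not pass either, although Cdc25b did with DESeq2 (adjusted p = 0.038). Cdc25b, the most abundant gene of the step per kilobase of exon (8.84 CPM per kb in CUMS and 10.4 in Control), was at 31.27, 35.02 and 32.61 CPM in CUMS, against 39.9, 36.5 and 40.3 CPM in Control (log2 fold change -0.24 ± 0.068, adjusted p = 0.079). Cdc25c was at 1.62, 1.65 and 1.54 CPM in CUMS, within the range of Control at 1.76, 1.58 and 1.44 CPM. It is the least abundant of the 47 genes, at 122 estimated counts or about 30.5 read pairs in its lowest library, and had the largest standard error of the 47 (log2 fold change 0.01 ± 0.23, adjusted p = 0.99).

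In the spindle checkpoint and the anaphase trigger, 5 of 6 genes fell: Ttk, Cdc20, Ube2c, Bub1b and Bub1. Ttk, the checkpoint kinase also called Mps1, was at 2.96, 1.72 and 2.49 CPM in CUMS, against 5.226, 4.799 and 4.783 CPM in Control, with no overlap (log2 fold change -1.05 ± 0.20, adjusted p = 0.013). Cdc20, which activates the anaphase-promoting complex and is the most abundant of the step per kilobase, was at 8.46, 9.57 and 7.70 CPM in CUMS, against 15.9, 13.7 and 15.9 CPM in Control (log2 fold change -0.82 ± 0.11, adjusted p = 0.0020). Ube2c, the ubiquitin-conjugating enzyme of that complex, fell by 0.75 ± 0.097 and the checkpoint gene Bub1b by 0.69 ± 0.10.

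Mad2l1, whose product inhibits Cdc20, did not pass. It was at 9.32, 6.02 and 5.54 CPM in CUMS, against 9.04, 7.93 and 7.54 CPM in Control. CUMS replicate 1 held the highest value of all 6 libraries while the other two CUMS libraries were below every Control library (log2 fold change -0.23 ± 0.18, adjusted p = 0.61). Bub1 passed narrowly (-0.50 ± 0.13, adjusted p = 0.049), and its call ended without any single library. The Ttk call ended without any Control library or CUMS replicate 3 (adjusted p up to 0.054). This step therefore held 3 falling genes, not 5, without any Control library or without CUMS replicate 3.

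At the kinetochore and centromere, 3 of 6 genes fell: Cenpf, Cenpe and Ndc80. Cenpf, a large protein of the outer kinetochore, was at 11.98, 11.50 and 13.45 CPM in CUMS, against 20.7, 21.5 and 20.8 CPM in Control, with no overlap (log2 fold change -0.77 ± 0.089, adjusted p = 0.00057). The kinetochore motor gene Cenpe fell by 0.71 ± 0.11. Ndc80, Nuf2 and Spc25 encode subunits of the same microtubule-binding complex and had log2 fold changes of -0.68 ± 0.17, -0.57 ± 0.15 and -0.53 ± 0.16. Of the 3, only Ndc80 passed (adjusted p = 0.039, 0.063 and 0.099 in that order), and whether they differ from each other was not tested. The Ndc80 call was lost without any library other than CUMS replicate 1 (adjusted p up to 0.16), while Nuf2 passed with DESeq2 (adjusted p = 0.014) and without CUMS replicate 1 (0.025). Cenpa, the histone H3 variant that marks centromeres and the most abundant of the step per kilobase, was at 20.3, 21.1 and 17.7 CPM in CUMS, against 22.3, 22.8 and 23.1 CPM in Control. Its groups did not overlap, but the difference was small and did not pass (log2 fold change -0.21 ± 0.083, adjusted p = 0.22).

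All 4 genes of the chromosomal passenger complex fell. The complex joins the kinase Aurora B (Aurkb) to Incenp, survivin (Birc5) and borealin (Cdca8), and corrects faulty attachments before moving to the central spindle. Birc5 was at 5.08, 7.80 and 6.83 CPM in CUMS, against 11.8, 10.3 and 12.2 CPM in Control, with no overlap (log2 fold change -0.80 ± 0.15, adjusted p = 0.013). Incenp, the scaffold, is the most abundant of them per kilobase and was at 30.9, 28.8 and 25.7 CPM in CUMS, against 40.9, 37.0 and 38.9 CPM in Control (log2 fold change -0.45 ± 0.077, adjusted p = 0.0067). Cdca8 fell by 0.75 ± 0.12 and Aurkb by 0.64 ± 0.14. Without Control replicate 3 or CUMS replicate 3 the calls of Birc5 and Aurkb ended and 2 of the 4 genes fell. The Aurkb call also ended without Control replicate 1 or CUMS replicate 1 or 2.

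All 7 spindle motor and spindle assembly genes fell. Kif15, a motor that works beside Kif11 to keep the spindle poles apart, was at 8.37, 9.28 and 8.26 CPM in CUMS, against 16.5, 16.1 and 14.9 CPM in Control (log2 fold change -0.87 ± 0.10, adjusted p = 0.00052). Tpx2, which activates Aurora A and nucleates microtubules, is the most abundant of the step per kilobase. It was at 13.4, 13.5 and 13.6 CPM in CUMS, against 21.50, 21.64 and 22.03 CPM in Control, and the libraries within each group were nearly equal (log2 fold change -0.69 ± 0.077, adjusted p = 0.00046). The smallest fall of the step was in Hmmr, a microtubule-associated protein gene, at 7.96, 6.79 and 8.19 CPM in CUMS, against 10.53, 10.89 and 11.54 CPM in Control (log2 fold change -0.52 ± 0.12, adjusted p = 0.025). Nusap1, Kif11, Kif2c and Aspm, which bundle, slide, depolymerise and anchor spindle microtubules, lay between -0.80 and -0.69. Without Control replicate 2 or 3 or CUMS replicate 2 or 3 the calls of Kif2c and Hmmr ended and 5 of the 7 genes fell. The Kif2c call also ended without Control replicate 1.

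All 6 genes of mitotic chromosome structure fell, but by unequal amounts. Smc2, a subunit shared by both condensin complexes, was at 12.1, 12.4 and 12.8 CPM in CUMS, against 22.2, 22.9 and 24.2 CPM in Control, with no overlap (log2 fold change -0.89 ± 0.080, adjusted p = 9.6e-05). Its partner in the same heterodimer, Smc4, was at 83.6, 79.0 and 86.6 CPM in CUMS, against 91.5, 104 and 102 CPM in Control (log2 fold change -0.25 ± 0.059, adjusted p = 0.032). The ratio of Smc2 to Smc4 reads was 0.145, 0.157 and 0.148 in CUMS, against 0.243, 0.220 and 0.238 in Control, with no overlap. This ratio compares libraries for 1 pair of genes, a pair chosen after its values were seen. The Smc4 call ended without any single library other than Control replicate 1.

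Mki67, the gene of the proliferation antigen Ki-67 that coats mitotic chromosomes, had the highest level of the 47 genes per kilobase, 17.9 CPM per kb in CUMS and 22.5 in Control. It was at 172, 180.4 and 187 CPM in CUMS, against 217, 229.9 and 234 CPM in Control, with no overlap (log2 fold change -0.33 ± 0.048, adjusted p = 0.0023). Ncapd2 and Ncapg, condensin I subunits, fell by 0.70 ± 0.078 and 0.60 ± 0.14, and the decatenating enzyme gene Top2a by 0.69 ± 0.061. The Ncapg call (adjusted p = 0.034) ended, like that of Smc4, without any single library other than Control replicate 1. In each of those fits 4 of the 6 chromosome structure genes fell. Over the 47 genes, level and log2 fold change were weakly related (Spearman's rho 0.19 across genes, which share libraries, and 0.10 over the 43 with a mean of at least 5 CPM).

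Of the 10 genes of the central spindle and cytokinesis, 8 fell. Shcbp1, whose product binds centralspindlin in late mitosis, was at 2.02, 3.15 and 2.20 CPM in CUMS, against 6.59, 5.42 and 4.91 CPM in Control, the largest fall of the 47 genes (log2 fold change -1.20 ± 0.20, adjusted p = 0.0063). Cep55, which recruits the abscission machinery to the midbody, fell by 0.96 ± 0.16, and Ect2, the exchange factor that activates RhoA at the equator, by 0.77 ± 0.13. Prc1, the bundler of antiparallel microtubules, and its partner motor gene Kif4 fell by 0.72 ± 0.12 and 0.73 ± 0.14. The motor genes Kif20b and Kif20a fell by 0.67 ± 0.14 and 0.58 ± 0.15, the second narrowly (adjusted p = 0.048). Anln, the contractile ring scaffold anillin, did not pass although its groups did not overlap (-0.33 ± 0.092, adjusted p = 0.068). With DESeq2 it passed (adjusted p = 0.024). Without Control replicate 3 or CUMS replicate 2 the count was 5 of 10.

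The centralspindlin pair parted. Racgap1 was at 14.6, 15.7 and 15.5 CPM in CUMS, against 25.0, 24.4 and 24.3 CPM in Control (log2 fold change -0.69 ± 0.075, adjusted p = 0.00042). Kif23, the motor subunit that binds Racgap1 in the same complex, was at 74.8, 72.6 and 72.2 CPM in CUMS, against 70.2, 68.7 and 72.9 CPM in Control, with overlapping groups (log2 fold change 0.05 ± 0.049, adjusted p = 0.67). The ratio of Kif23 to Racgap1 was 5.14, 4.62 and 4.65 in CUMS, against 2.81, 2.81 and 3.00 in Control, with no overlap, for a pair again chosen after its values were seen. Per kilobase of exon, Kif23 stood at 9.26 CPM per kb in CUMS and 8.93 in Control, above Racgap1 at 2.16 in CUMS and 3.47 in Control. Kif23 (chromosome 9, 61915905 to 61946774, minus strand, GRCm38) shares no annotated exon base with another gene.

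**Figure D3:**
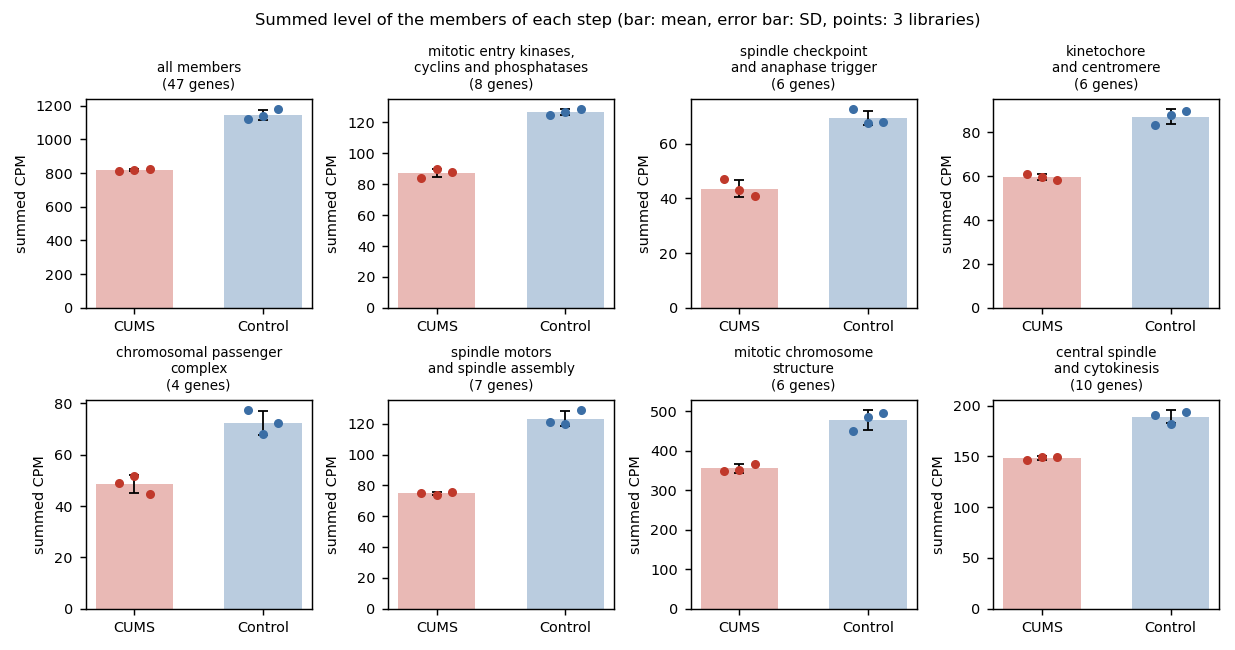
Summed CPM of all 47 genes and of the genes of each step in CUMS (left) and Control (right), with bars for the mean, error bars for the SD and points for the 3 libraries. In every panel the CUMS points lie below the Control points, and the spindle genes stand at 60.8% of the Control mean.

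By step, the CUMS sum as a share of the Control mean was lowest for the spindle genes, at 60.8%, and the checkpoint genes, at 62.8%. It was 67.1% for the passenger complex, 68.4% for the kinetochore and 68.9% for mitotic entry. The chromosome structure genes stood at 74.4% and the cytokinesis genes at 78.6%, sums in which Mki67, Smc4 and Kif23 weigh most. Median log2 fold changes ran closer together, from -0.72 for the checkpoint to -0.63 for the kinetochore, and no test was made between steps. Exons of 14 of the 47 genes overlap those of another gene, 12 of them on the opposite strand, and reads of such pairs cannot be told apart without strand. Of these 14, 12 fell, and of the 33 without overlap 25 fell, with medians of -0.71 and -0.69.

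Cell division genes outside the 47 were then read from the same fit, in which 2.14% of all genes tested fell and 2.36% rose. Of 79 other mitosis genes, 25 fell and 1 rose, with a median log2 fold change of -0.58. The largest falls past the threshold were in Trip13, Pbk, Cks1b, Spag5 and Ncaph (-1.04 ± 0.23, -1.03 ± 0.25, -0.94 ± 0.18, -0.89 ± 0.10 and -0.86 ± 0.13). Ncaph, the condensin I kleisin, averaged 5.54 ± 0.720 CPM in CUMS and 10.03 ± 0.751 CPM in Control (SD, n = 3 each, adjusted p = 0.0039), and Spag5, a spindle protein gene, 8.08 ± 0.555 CPM in CUMS and 14.9 ± 0.307 CPM in Control (adjusted p = 0.00047). The gene that rose was Haus8, an augmin subunit, by 0.24 ± 0.062 (adjusted p = 0.049), a call lost without any single library. Leaving out Control replicate 2 or 3 brought the 25 down to 13 or 9, and leaving out CUMS replicate 2 or 3 to 15 or 9. Wee1, the kinase that restrains Cdk1, did not pass (-0.99 ± 0.27, adjusted p = 0.067).

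Subunits of the anaphase-promoting complex itself did not pass. With edgeR 0 of 14 passed (3 at an unadjusted p under 0.05, and 0 with DESeq2), with a median of -0.09 and summed levels of 329 to 345 CPM in CUMS and 342 to 361 CPM in Control, which overlapped. Cdc20 and Ube2c, which work with the complex, were at 56.5% and 59.6% of their Control means in CUMS, and the difference from the subunits was not tested.

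Among 23 regulators, Foxm1 and E2f8 fell and 0 rose. Foxm1, an activator of mitotic genes, was at 10.4, 11.9 and 11.2 CPM in CUMS, against 17.9, 17.3 and 16.1 CPM in Control, with no overlap (log2 fold change -0.62 ± 0.095, adjusted p = 0.0037). E2f8, a repressor of the E2F family, fell by 0.38 ± 0.084, a call lost with no filter on low values and without Control replicate 2 or 3 or CUMS replicate 1 or 2, which left Foxm1 as the 1 gene that fell. Mybl2, the gene of B-Myb, averaged 3.35 ± 0.302 CPM in CUMS and 4.96 ± 0.802 CPM in Control (SD, n = 3 each) and did not pass (-0.56 ± 0.17, adjusted p = 0.092). E2f1 averaged 7.01 ± 0.571 CPM in CUMS and 6.73 ± 0.306 CPM in Control (0.06 ± 0.12, adjusted p = 0.88).

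Of 34 replication origin and fork genes tested out of 35, 3 fell and 0 rose, with a median of -0.25, beside a call in Gins1 that is not counted here. Of the 34, 28 lay below 0 and 6 above. These counts, the median and the sum of the list still include Gins1. The list summed to 161 to 168 CPM in CUMS and 196 to 204 CPM in Control, without overlap, with the CUMS mean at 81.5% of the Control mean. Rrm2 and Rrm1, the subunits of ribonucleotide reductase, fell by 0.68 ± 0.094 and 0.54 ± 0.095, and Uhrf1, a reader of newly replicated DNA, by 0.55 ± 0.12. Gins1 was at 0.0449 to 0.0832 CPM in CUMS, under the floor of 3 read pairs in every library, and 0.306 to 0.613 CPM in Control, so it passed the filter through Control and no fold is given. The helicase subunit genes Mcm2 to Mcm7 did not pass, with log2 fold changes of -0.17, -0.32, -0.20, -0.47, 0.02 and -0.42 in that order (adjusted p 0.064 to 0.97). The Uhrf1 call was lost without any single library other than Control replicate 2, which left 2 genes. The difference between the mitosis and replication lists was not tested.

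**Figure D4:**
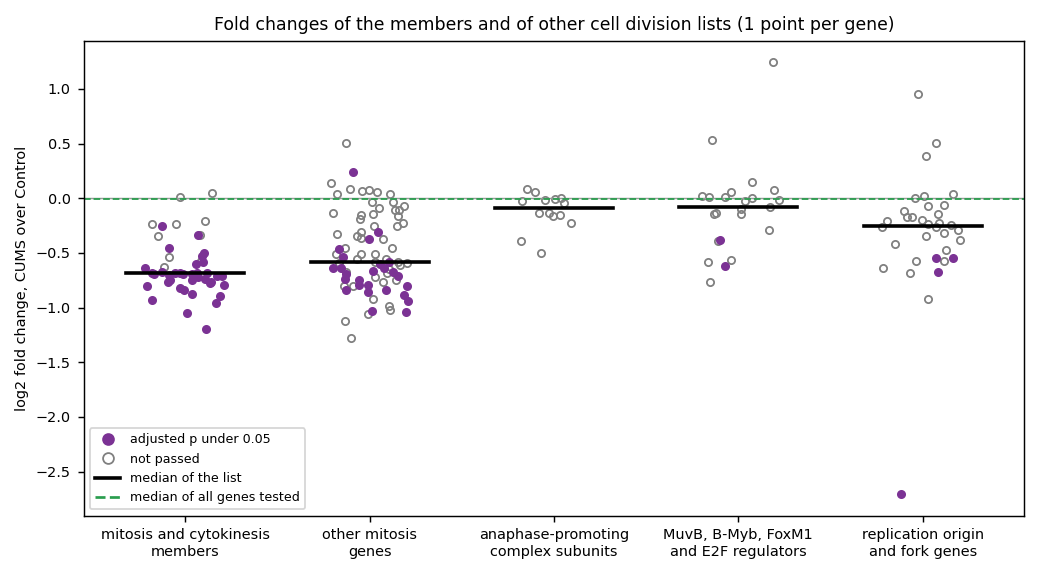
Log2 fold change, CUMS over Control, of every tested gene of the 47 mitosis and cytokinesis genes and of 4 other cell division lists, filled where the adjusted p was under 0.05, with the median of each list as a black line. The 47 genes centre on -0.69, the other mitosis genes on -0.58, and the anaphase-promoting complex on -0.09, and the lowest point is Gins1, which was under the floor in CUMS.

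The sorted cells carried the defining markers of neutrophils, none of which was at 0: the 12 markers summed to 108714 to 134734 CPM in CUMS and 127450 to 138692 CPM in Control. Camp and Ltf fell among them and Mmp9 rose, while with DESeq2 1 of the 12 fell and 2 rose. Of 12 markers of dividing neutrophil precursors, 4 fell and 2 rose (3 and 2 with DESeq2). Among all genes tested with edgeR, 2.14% fell and 2.36% rose. Elane and Mpo, serine protease and peroxidase genes of primary granules, were higher in CUMS (2.13 ± 0.517 and 6.95 ± 0.700 CPM, against 0.454 ± 0.133 and 3.42 ± 0.852 CPM in Control), while Fcnb and Chil3 fell by 0.58 ± 0.058 and 0.32 ± 0.047, with Camp and Ltf the other two. The list summed to 39906 to 45719 CPM in CUMS and 46383 to 48692 CPM in Control. Of its 12 genes, 7 lay below 0 and 5 above, with a median log2 fold change of -0.10. Camp and Ltf are also in the list of defining neutrophil markers, so this sum is not one of dividing cells alone.

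Marker lists of some other cells differed between the groups in their sums, and those of others did not. Of 19 erythroid markers, 8 rose and 0 fell, and they summed to 2542 to 3028 CPM in CUMS and 1318 to 1891 CPM in Control, mostly haemoglobin. Log2 fold changes were above 0 for 18 of the 19 and below 0 for 1, with a median of 0.93. In 14 of them every CUMS library lay above every Control library. None was at 0 in all libraries, and 7 averaged under 1 CPM. The erythroid regulators Gata1 and Klf1 averaged 0.110 and 0.165 CPM in CUMS and 0.151 and 0.152 CPM in Control. Those values lay close to the floor of 3 read pairs, which is 0.108 to 0.153 CPM by library. Of 15 B cell markers, 1 rose, and they summed to 221 to 225 CPM in CUMS and 178 to 182 CPM in Control, with 0 at 0. Log2 fold changes of all 15 were above 0, with a median of 0.39. Of the 15, 2 rose with DESeq2 and 5 averaged under 1 CPM. The 7 plasma cell markers, of which 6 were tested with 0 calls and Tnfrsf17 was at 0 in all libraries, summed to 6.98 to 7.67 CPM in CUMS and 5.02 to 5.94 CPM in Control. The 7 basophil and mast cell markers summed to 818 to 849 CPM in CUMS and 1050.1 to 1067 CPM in Control, nearly all from Hdc, which fell. Log2 fold changes of all 7 were below 0, with a median of -0.41, and 3 averaged under 1 CPM. Without overlap between groups, the sums of the erythroid, B cell and plasma cell lists were higher in CUMS. The sums of the dividing precursor list, in which Elane and Mpo rose, and of the basophil and mast cell list were lower, as was that of the 47 genes. Among single genes tested, 11.5% showed such a gap in each direction, and by adjusted p 2.14% fell and 2.36% rose. The monocyte, eosinophil, T and NK cell, stem cell and platelet lists, with 10 of 10, 9 of 9, 6 of 12, 7 of 10 and 5 of 8 markers tested, had 3, 2, 0, 0 and 0 that rose and 0 that fell, and the groups overlapped in each sum, with 0 markers at 0 in all libraries. The eosinophil sums overlapped narrowly, at 51.6 to 60.3 CPM in CUMS and 44.9 to 51.9 CPM in Control. All 9 eosinophil markers lay above 0, with a median log2 fold change of 1.44, and 5 averaged under 1 CPM. In 5 of the 9 every CUMS library lay above every Control library. The part of other cell types in the falls of the 47 genes was not tested.

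**Figure D5:**
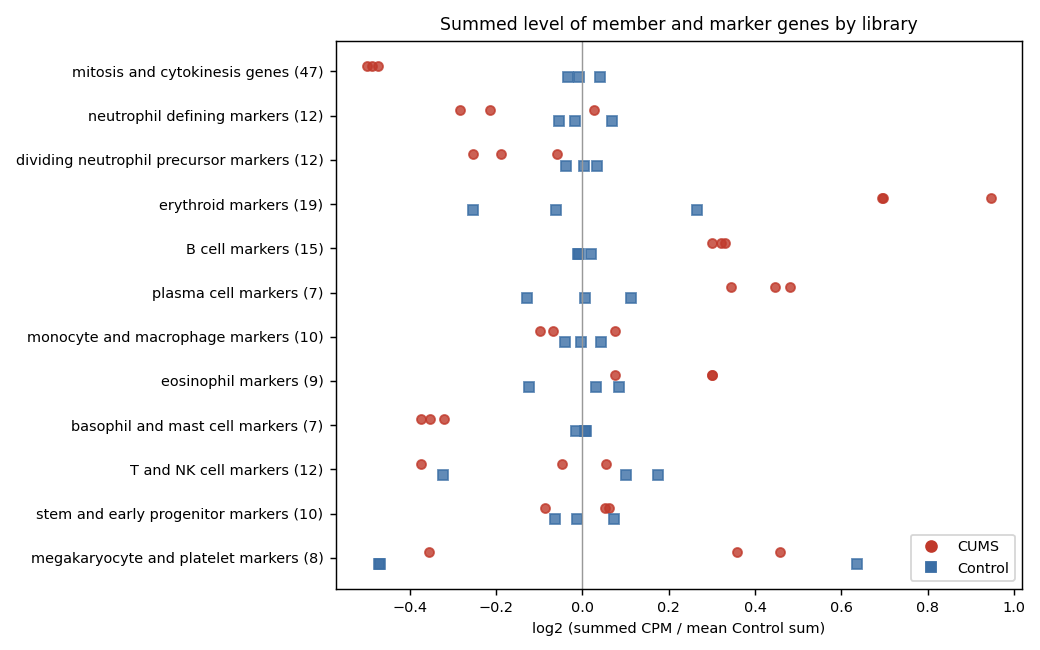
Summed CPM of the 47 genes and of each cell type marker list in each library, as the log2 ratio to the mean Control sum, with CUMS as circles, Control as squares and the number of genes in brackets. The 47 genes lie lower in CUMS, as do the dividing precursor and the basophil and mast cell sums, while the erythroid, B cell and plasma cell sums lie higher without overlap.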

How the data were processed

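RNA from 3 CUMS and 3 Control libraries of sorted marrow neutrophils was prepared with a TruSeq kit and read as pairs of 150 bp, per the labels' protocols. Tools listed in the submitters' processing notes, without roles, are HISAT2 2.1, featureCounts 1.6.4, bcl2fastq 2.19, DESeq2 2.11.40.6 and cutadapt 1.16.5, with the build mm10. Which of them wrote the files is not given in the sources used here. Deposited values are estimated counts per gene: the numbers 4, 8, 12 and 16 were 1.89, 1.66, 1.41 and 1.38 times as frequent as adjacent numbers, and 1 read pair is taken as 4. Totals were 78845457 to 109757558 per library, or 19711364 to 27439390 read pairs, and the floor is 3 read pairs, covering counting error only.

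Values entered edgeR 4.0.16 (R 4.3.3) as deposited, already whole, with filterByExpr defaults, TMM scaling and a quasi-likelihood F test of the group term, with no covariate. Adjusted p-values are Benjamini-Hochberg over 15778 genes. Errors are SE of log2 fold changes (from the F statistic) and SD of CPM over 3 libraries. On simulated counts for this comparison (15284 to 15325 genes), 86.3% of 2-fold and 65.0% of 1.5-fold changes were recovered. Changes were placed only in genes above a low-level cut-off, so these shares do not cover the least abundant genes. The spread was taken from its trend over genes, not gene by gene, at the deposited totals. Exon lengths and positions come from GENCODE M21 (GRCm38). Exact permutation tests of 3 against 3 libraries cannot go below p = 0.1 and were not used. Per-library values are given for the genes of each step with the highest level per kilobase and the largest and smallest fold change, other genes being chosen after their values were seen. The members and lists were chosen with earlier results of these data known. Alternatives were RLE and upper quartile scaling, no filter, DESeq2 1.42.0, values divided by 4, rows of a symbol summed, a replicate block, each library left out, and a shorter promoter window.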

Additional observations from a re-analysis of the deposited data

How the results depend on the processing

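The count of 37 falling genes was 25 to 33 when each library was left out, 35 with RLE scaling, 36 with upper quartile scaling, 30 with no filter, 41 with DESeq2, 40 with values divided by 4 and 37 with rows summed; 0 rose under any of these 13 alternatives. Of the 37, 25 fell under all 13. The median ran from -0.70 to -0.65 with a library left out. Signs were followed for the 47 genes, Foxm1, Mybl2, E2f1, E2f8, Wee1 and Mcm2 to Mcm7. They were also followed for the called genes with the largest fold changes in each other cell division list. Among these genes, leaving out a library turned the sign of 3 uncalled values, which ranged from -0.052 to 0.091 for Cdc25c, from -0.0076 to 0.097 for E2f1 and from -0.079 to 0.16 for Mcm6. Over all genes, 160 to 344 fell and 145 to 353 rose with a library left out, 213 fell with no filter and 651 rose with DESeq2. The other mitosis genes had 9 to 22 falls and 0 rises with a library left out, and 0 rises with no filter. In the shorter promoter window 28 genes held the CCAAT box, 31 the CHR core and 24 both. The causes were not tested. Same-numbered libraries had correlations of deviations of 0.085, 0.036 and 0.0061, so the numbers were not taken as pairs; with a replicate block 37 genes fell, without Bub1 and Ncapg (adjusted p = 0.071 and 0.0504) and with Ccnb1 and Nuf2 (0.046 and 0.025), and over all genes 431 fell and 500 rose. Among the 47 genes the lowest library value was 30.5 read pairs, in Cdc25c.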
